A study of Mus musculus with 34 samples.

Results

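The genes of the complement system that are made in the brain were followed across 8 groups of mice. The 8 genes C1qa, C1qb, C1qc, C4b, C3, C3ar1, C5ar1 and Serping1 were picked by symbol from the 55385 genes of the deposited count table, without using their values. Earlier results of these data were known when they were picked. All 8 had enough counts to enter the test, which ran on 17632 genes. Poly-A RNA came from the brain cortex of 34 mice aged 6 months, 16 female and 18 male, with 1 library per mouse. Wild-type mice were C57BL/6J. Dp16 mice model Down syndrome and carry an extra copy of a stretch of mouse chromosome 16. 5xFAD mice model amyloid deposition in Alzheimer's disease and carry mutant human transgenes under the Thy1 promoter, which acts mainly in neurons, and 5xFAD-Dp16 mice carry both lesions. Sham mice were gavaged each day for a month with the vehicle, 0.5% methylcellulose, so every control also underwent gavage. Tofacitinib mice were gavaged in the same way with 15 mg/kg of tofacitinib, an inhibitor of Janus kinases, the enzymes that pass on interferon and cytokine signals. The sham and tofacitinib groups held 5 and 5 wild-type, 3 and 5 Dp16, 4 and 5 5xFAD, and 3 and 4 5xFAD-Dp16 mice.

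Complement is a cascade of secreted proteins that tags material for removal. In its classical arm, C1q, built from the A, B and C chains, binds a target and activates the proteases C1r and C1s. These cleave C4 and C2, and the products cleave C3, the point at which all arms meet. C1q in the brain comes mostly from microglia, the resident macrophages, while C4 and C3 are known from astrocytes and other glia. In mouse models of amyloid disease, C1q and C3 are known for marking synapses that microglia then engulf.

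All 8 genes lie outside chromosome 16, so none is part of the duplicated stretch. C1qb, C1qc and C1qa (ENSMUSG00000036905.8, ENSMUSG00000036896.5 and ENSMUSG00000036887.5) sit side by side in that order on the minus strand of chromosome 4 (GRCm38), from 136880129 to 136886187, 136889804 to 136893065 and 136895917 to 136898803. The cluster spans 18675 bp. C4b (ENSMUSG00000073418.4) lies on chromosome 17, from 34728380 to 34743882, and C3 (ENSMUSG00000024164.15) on the same chromosome from 57203970 to 57228136, where it overlaps the microRNA gene Mir6978 on the same strand. C3ar1 (ENSMUSG00000040552.8) lies on chromosome 6, from 122847138 to 122856161. C5ar1 (ENSMUSG00000049130.6) lies on chromosome 7, from 16246743 to 16259540, and Serping1 (ENSMUSG00000023224.12) on chromosome 2, from 84765387 to 84775444. C4b has a close copy, C4a, on chromosome 17 from 34809092 to 34823464. Of the 5230 stretches of 150 bases in the longest C4b transcript, 432 (8.26%) occur unchanged in a C4a transcript, so a small share of C4b reads could have been split or dropped. C4a itself had a median of 0.203 CPM (counts scaled to library size, here by the trimmed mean of M values, TMM) against 17.5 CPM for C4b.

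The promoters of C1qb and C1qc are shown because these neighbours varied together from mouse to mouse, as described below. C1qa varied with them too, but no promoter sequence was matched for C1qa, C4b or Serping1. RefSeq promoter sequences (GRCm38.p6), 300 bases long and spanning the gene start, were matched for 5 of the 8 genes. Each is read 5′ to 3′ on the minus strand, chr4:136886151-136886450 for C1qb and chr4:136892865-136893164 for C1qc, and the capitals mark the letters GAGGAA, the core bound by the myeloid factor PU.1, on either strand.
C1qb promoter: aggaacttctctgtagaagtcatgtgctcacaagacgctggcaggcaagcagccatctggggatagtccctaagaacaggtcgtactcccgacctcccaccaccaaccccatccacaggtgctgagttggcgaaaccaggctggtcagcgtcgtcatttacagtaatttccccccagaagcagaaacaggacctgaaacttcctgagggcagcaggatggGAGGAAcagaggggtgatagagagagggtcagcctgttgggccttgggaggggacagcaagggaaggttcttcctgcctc
C1qc promoter: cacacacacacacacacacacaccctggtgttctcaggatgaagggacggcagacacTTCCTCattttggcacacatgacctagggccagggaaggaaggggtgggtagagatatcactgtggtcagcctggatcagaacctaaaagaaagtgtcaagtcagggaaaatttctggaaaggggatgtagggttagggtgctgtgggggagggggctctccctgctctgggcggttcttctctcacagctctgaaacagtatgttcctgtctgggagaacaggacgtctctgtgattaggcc
GAGGAA or its reverse complement stood once in each, at bases 221 to 226 in C1qb and 58 to 63 in C1qc, and in none of the promoters of C3, C3ar1 and C5ar1. It is common, with a match in 28.3% of the 32851 mouse promoters of the same length. The letters TTCNNNGAA, to which STAT factors downstream of Janus kinases can bind, were searched on both strands and can overlap GAGGAA. They were in none of the 5 promoters, against 8.30% of all promoters. No match says only that these letters are not in this window.

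Before the results, 2 libraries need naming. Wild-type sham 2 (56.2) and 5xFAD tofacitinib 2 (-57.5) were far from all others on the second principal component of all genes tested. Wild-type sham 2 had the lowest C4b of all mice. 5xFAD tofacitinib 2 had the highest C1qa, C1qb, C1qc, C4b, C3 and Serping1 of all mice. The 5xFAD tofacitinib group also held the lowest summed neuron markers of all mice, at 6910 CPM. It held the highest summed oligodendrocyte and choroid plexus markers, at 15200 and 1544 CPM. The part of tissue content in the complement values was not tested. Values without both libraries are given for the averaged 5xFAD differences in C1qa, C1qb, C1qc, C4b, C3ar1 and Serping1. They are also given for the ratio of C1qc to C1qa and for the interaction of 5xFAD and sex in C4b. They are not given for the single comparisons, the Dp16 and tofacitinib averages or the correlations over all 34 libraries. Total counts lay between 16029841 and 21388650 per library. They were higher in the 16 5xFAD carriers, meaning 5xFAD and 5xFAD-Dp16 mice together (median 19738649), than in the 18 non-carriers (median 16983200.5). Thy1, whose promoter drives the transgenes, was at 1427 to 2572 CPM in carriers and at 824 to 952 CPM in non-carriers. The neuronal marker Snap25 (2122 to 4706 CPM) and the microglial marker Csf1r (64.0 to 136 CPM) were present in all 34 libraries.

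Per length of transcript, the C1q chains were far above the other members. On the authors' RPKM scale (reads per kilobase of gene, scaled to library size), the median over the 34 mice was 99.0 for C1qa, 70.7 for C1qb and 55.1 for C1qc. C4b followed at 3.29 and Serping1, the inhibitor of C1r and C1s, at 2.12. The receptors C3ar1 and C5ar1, which bind the fragments C3a and C5a, stood at 0.654 and 0.311, and C3 was lowest at 0.133. In raw reads this meant 1371 to 3506 counts per library for C1qa but 0 to 34 for C3 and 8 to 34 for C5ar1, so single mice carry wide counting error for those genes. C3 had no count in Dp16 tofacitinib 4, which allows up to 0.173 CPM (3 counts, counting error only). The order of the groups by mean was not sharp for any gene. For each of the 8, none of the 7 gaps between neighbouring groups exceeded the SDs of both.

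**Figure D1:**
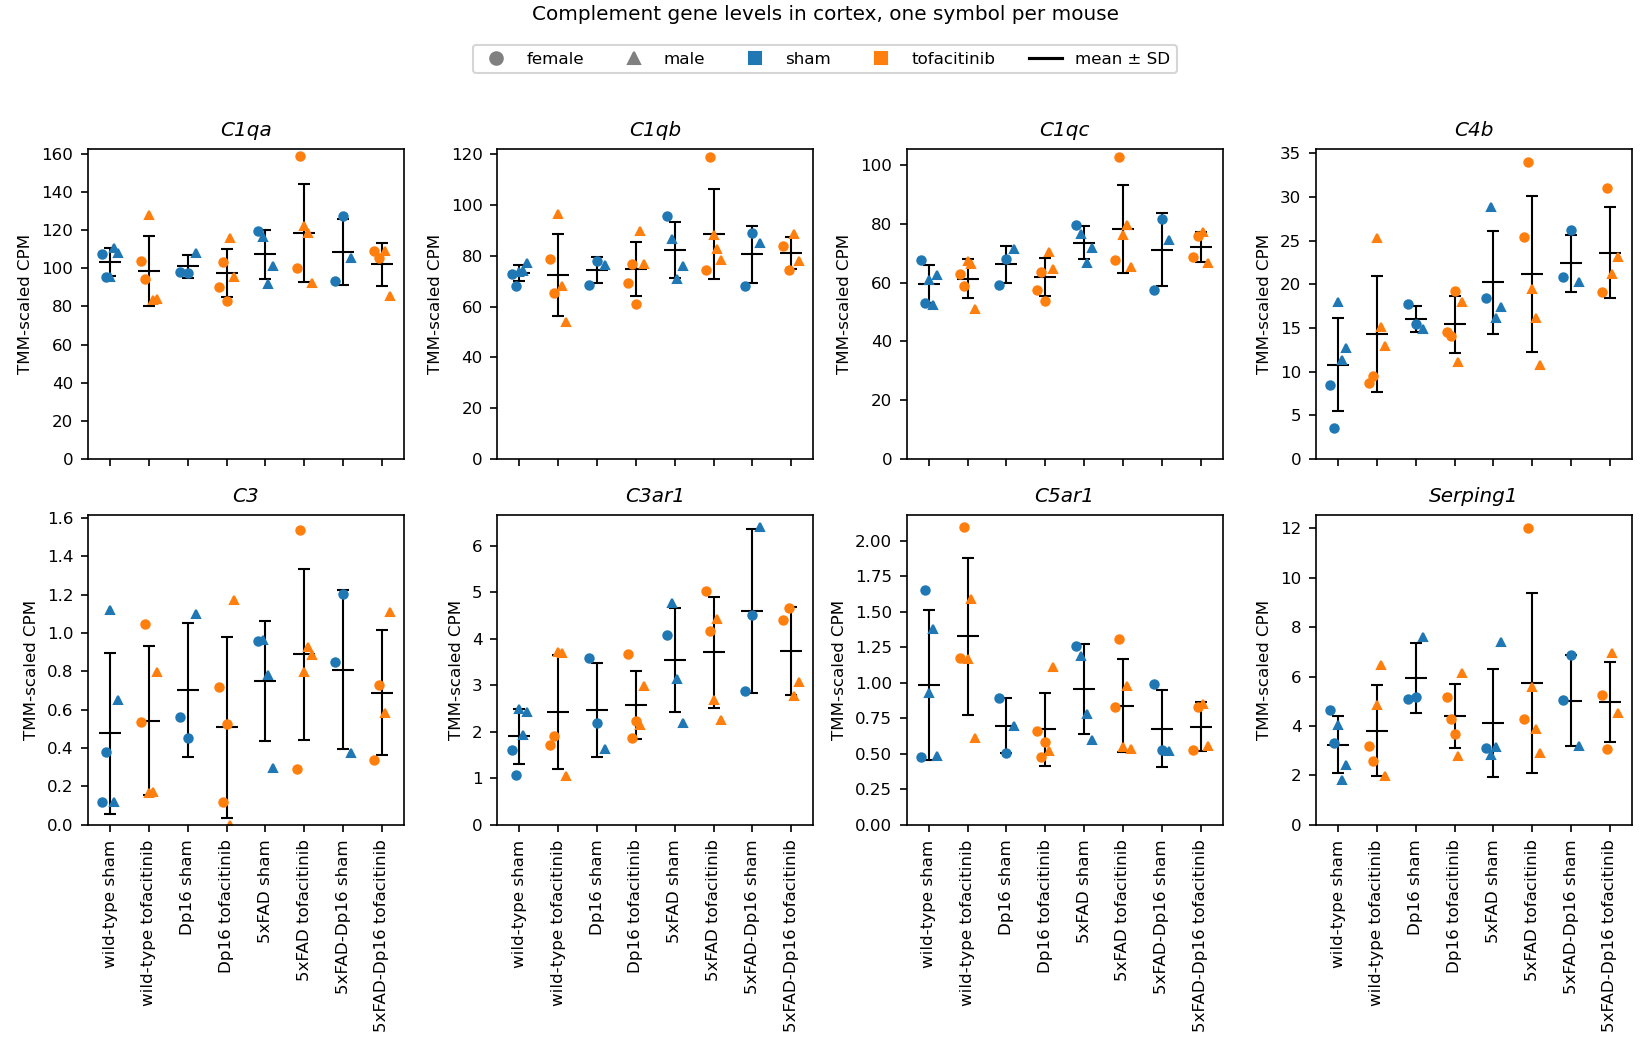
Levels of the 8 complement genes in TMM-scaled CPM (y axis, from 0) by group (x axis), with 1 symbol per mouse, circles for females, triangles for males, blue for sham, orange for tofacitinib, and bars for the mean ± SD. C4b and C3ar1 sit higher in the 4 groups with 5xFAD, from 20.2 to 23.6 and from 3.54 to 4.59 CPM on average, with overlap between single mice.

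The amyloid transgenes were examined first, by averaging the 4 differences between carriers and non-carriers (with and without Dp16, sham and tofacitinib). C3ar1, C4b and C1qc were higher in carriers by 1.66-fold, 1.57-fold and 1.19-fold, and each missed the threshold (edgeR quasi-likelihood test, Benjamini-Hochberg adjusted p under 0.05 over all genes tested). None of the 8 genes was called, against 0.431% of all genes tested. At an unadjusted p under 0.05 there were 4 of 8, against 20.2% of all genes. Of the members, limma-voom called 3. DESeq2 called 2 of the 4 to which it gave an adjusted p (not to C3, C3ar1, C5ar1 or Serping1). Over all genes, limma-voom called 589 and DESeq2 587, against the 76 behind the edgeR share of 0.431%. The direction was up for 7 of the 8, against 50.7% of all genes, with a median log2 difference of 0.23 against 0.0033 over all genes tested.

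The C1q chains came first in the cascade and showed small differences. C1qc lay between 57.4 and 103 CPM in the 16 carriers (median 75.2) and between 51.0 and 71.3 CPM in the 18 non-carriers (median 62.9). In 10 of 16 carriers it was above the highest non-carrier, though the groups overlapped. The averaged difference in C1qc was 1.19-fold (95% interval 1.09 to 1.29, edgeR adjusted p = 0.0567), and it passed the threshold in 9 of 45 alternative fits. C1qb was at 83.7 ± 12.03 CPM in carriers (SD, n = 16) and 73.6 ± 9.72 in non-carriers (SD, n = 18), a difference of 1.13-fold (1.02 to 1.25, edgeR adjusted p = 0.177). C1qa differed least, at 110 ± 17.8 against 100.1 ± 11.8 CPM, or 1.09-fold (0.985 to 1.20, edgeR adjusted p = 0.332). For both genes 1 carrier, 5xFAD tofacitinib 2, was above the highest non-carrier. Without the libraries that stood apart the log2 differences were 0.21 for C1qc, 0.13 for C1qb and 0.08 for C1qa, compared with 0.25, 0.17 and 0.12 in all mice.

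The chains were also set against each other within each mouse. Reads of C1qc per read of C1qa lay between 0.616 and 0.782 in carriers (median 0.674) and between 0.475 and 0.798 in non-carriers (median 0.619), so the carriers' range lay inside that of the non-carriers. The mean log2 ratio was 0.13 higher in carriers and higher in 4 of 4 combinations of Dp16 and treatment (two-sided permutation within these, 100000 resamples, p = 0.00693). The ratios of C1qb to C1qa (0.06 higher, permutation p = 0.105) and of C1qc to C1qb (0.07 higher, permutation p = 0.0779) did not pass. Adjusted over the 3 ratios, p was 0.0208 for C1qc to C1qa and 0.105 for the others. Without the libraries that stood apart the C1qc to C1qa difference was again 0.13 (permutation, adjusted p = 0.0318). It missed the threshold without 5xFAD-Dp16 sham 4 (permutation, adjusted p = 0.0539) and without Dp16 sham 1 (0.0547). These ratios were looked at after the values of the chains had been seen.

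C4b encodes the fourth component, which C1s cleaves and which then binds the target surface. In sham mice C4b was at 8.49, 3.50, 17.9, 11.3 and 12.7 CPM in wild-type, at 18.4, 28.9, 16.2 and 17.3 in 5xFAD, and at 20.8, 26.2 and 20.2 in 5xFAD-Dp16. All 3 5xFAD-Dp16 mice were above all 5 wild-type mice, while 2 of 4 5xFAD mice were. Dp16 sham mice, at 17.7, 15.5 and 14.8 CPM, lay within the wild-type range and below every 5xFAD-Dp16 mouse. Under tofacitinib C4b was at 8.71, 9.50, 25.3, 15.1 and 12.9 CPM in wild-type and at 25.4, 33.97, 19.5, 16.1 and 10.8 in 5xFAD. It was at 14.5, 14.1, 19.3, 11.2 and 18.005 CPM in Dp16 and at 19.1, 31.1, 21.2 and 23.2 in 5xFAD-Dp16. These tofacitinib groups overlapped, with 1 wild-type mouse (25.3) among the high values and 1 5xFAD mouse (10.8) among the low ones. Averaged, carriers stood 1.57-fold higher (95% interval 1.23 to 1.99, edgeR adjusted p = 0.0743), at 21.8 ± 6.07 CPM (SD, n = 16) against 13.9 ± 4.92 (SD, n = 18), and C4b passed in 6 of 45 alternative fits. Without the libraries that stood apart the log2 difference was 0.53, compared with 0.65.

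C3, on which the arms converge, was too low for a firm comparison. It lay between 0.293 and 1.54 CPM in carriers (median 0.821) and between 0 and 1.17 CPM in non-carriers (median 0.531), and the ranges overlapped. The difference was 1.41-fold, with a 95% interval of 0.847 to 2.36 (edgeR adjusted p = 0.453).

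The receptors C3ar1 and C5ar1 were read next, and the difference between them was not tested. C3ar1 sham values were 1.60, 1.08, 2.48, 1.92 and 2.43 CPM in wild-type, 4.07, 4.77, 3.13 and 2.19 in 5xFAD, and 2.87, 4.50 and 6.39 in 5xFAD-Dp16. Again all 3 5xFAD-Dp16 mice were above all wild-type mice, and 3 of 4 5xFAD mice were. Dp16 sham mice, at 3.59, 2.19 and 1.62 CPM, overlapped both wild-type and 5xFAD-Dp16. Under tofacitinib C3ar1 was at 1.71, 1.91, 3.72, 3.70 and 1.04 CPM in wild-type and at 5.02, 4.16, 2.68, 4.43 and 2.25 in 5xFAD. It was at 3.66, 1.86, 2.23, 2.14 and 2.98 CPM in Dp16 and at 4.41, 4.67, 2.76 and 3.08 in 5xFAD-Dp16. Here 3 of 5 5xFAD mice and 2 of 4 5xFAD-Dp16 mice were above the highest wild-type mouse. Averaged, C3ar1 was 1.66-fold higher in carriers (95% interval 1.30 to 2.13, edgeR adjusted p = 0.0501), at 3.84 ± 1.17 CPM against 2.33 ± 0.870, with 9 of 16 carriers above the highest non-carrier. It passed the threshold in 19 of the 44 alternative fits that gave it an adjusted p, and its log2 difference was 0.69 without the libraries that stood apart, compared with 0.73. C5ar1 stood at 0.801 ± 0.279 CPM in carriers and 0.946 ± 0.483 in non-carriers, 0.889-fold (0.651 to 1.21, edgeR adjusted p = 0.699).

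Serping1, the C1 inhibitor and the only regulator among the 8, did not separate carriers from non-carriers. It lay between 2.84 and 12.03 CPM in carriers (median 4.42) and between 1.80 and 7.59 CPM in non-carriers (median 4.15). The difference was 1.16-fold (95% interval 0.879 to 1.54, edgeR adjusted p = 0.562). Its highest value, 12.03, was from 5xFAD tofacitinib 2, and without the libraries that stood apart the log2 difference was 0.10, compared with 0.22. Leptomeningeal fibroblast markers, from the membranes around the brain, summed to between 48.1 and 128 CPM in carriers and between 47.4 and 92.0 in non-carriers. Of these 10 markers 9 were above 0 in the averaged difference, against 50.7% of all genes, and none was called. Their part in the Serping1 values was not tested.

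**Figure D2:**
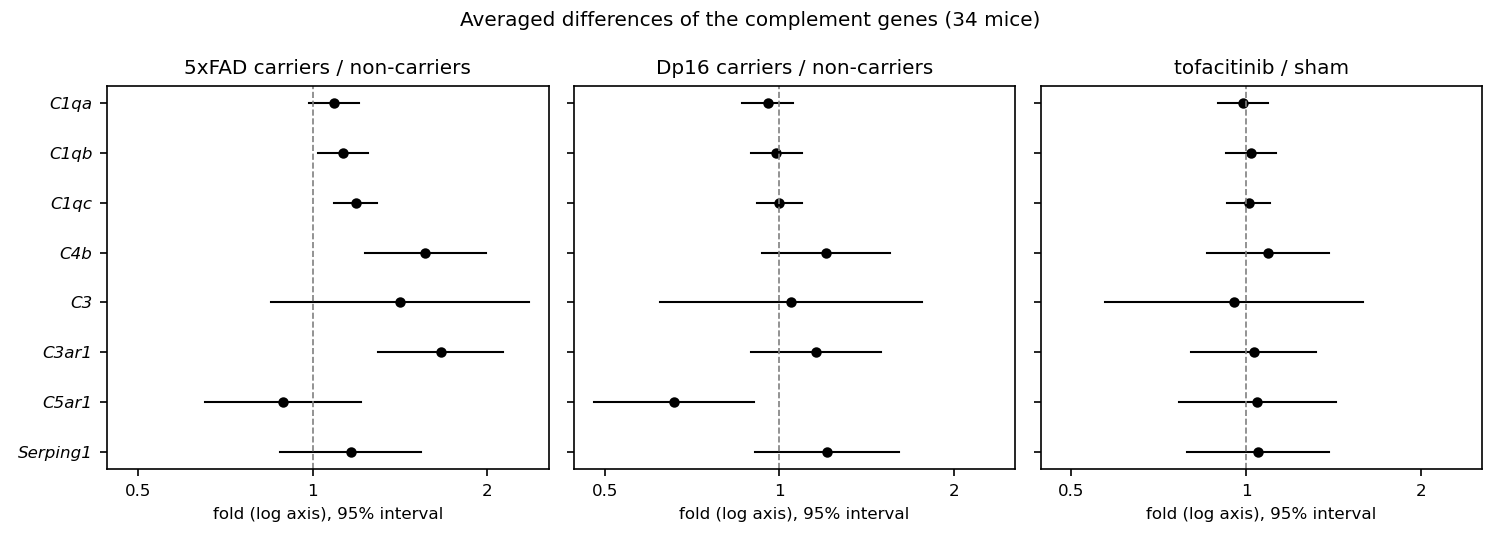
Fold difference (x axis, log scale) of the 8 complement genes between 5xFAD carriers and non-carriers, Dp16 carriers and non-carriers, and tofacitinib and sham mice, each averaged over the other groups, with points for the estimate and lines for the 95% interval. Intervals lie above 1 for C1qb, C1qc, C4b and C3ar1 with 5xFAD and below 1 for C5ar1 with Dp16, and the interval of every gene spans 1 with tofacitinib.

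In the single comparisons with wild-type sham mice, C4b, C3ar1 and C1qc again differed but missed the threshold. Between 5xFAD and wild-type sham mice, C4b was 1.87-fold (95% interval 1.17 to 2.98), C3ar1 1.85-fold (1.14 to 2.99) and C1qc 1.24-fold (1.05 to 1.46). The edgeR adjusted p was 0.0969 for C4b, 0.111 for C3ar1 and 0.107 for C1qc. There was no call among the 8, against 0.00567% of all genes, although 3 of 8 had an unadjusted p under 0.05, against 24.7%. DESeq2 called none of the 6 with an adjusted p, and limma-voom 1, while over all genes they called 1587 and 2806. Between 5xFAD-Dp16 and wild-type sham mice, C3ar1 was 2.40-fold (1.44 to 4.00) and C4b 2.12-fold (1.28 to 3.53), with edgeR adjusted p of 0.138 and 0.218. Again no member was called, against 0.363% of all genes, with 2 of 8 at an unadjusted p under 0.05 against 14.6%. DESeq2 called none of the 6 with an adjusted p, and limma-voom 2, while over all genes they called 163 and 685. C4b and C3ar1, 2 of the 8, did not overlap between these groups, against 9.73% of all genes. C4b alone (1 of 8) did not overlap between 5xFAD-Dp16 and Dp16 sham mice, against 20% of all genes. Both comparisons with wild-type share its 5 mice.

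The remaining carrier comparisons called no member by edgeR, DESeq2 or limma-voom. Between 5xFAD-Dp16 and Dp16 mice, edgeR called 0.00567% of all genes under sham and also under tofacitinib, and 1 and 0 of 8 members had an unadjusted p under 0.05, against 6.15% and 4.51%. Under tofacitinib, 5xFAD against wild-type mice gave 0.0113% of all genes called and 3 of 8 members at an unadjusted p under 0.05, against 6.27%. For 5xFAD-Dp16 against wild-type mice these were 0.306%, and 2 of 8 against 6.35%.

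Markers of the cells that make complement were read beside these values. The 13 markers of homeostatic microglia, all with counts in every library, summed to between 503 and 693 CPM in carriers (median 589) and between 434 and 613 CPM in non-carriers (median 526). Of these 13, 10 were above 0, against 50.7% of all genes, and 1 was called, against 0.431%. The called gene was Csf1r, the receptor on which microglia depend for survival (1.24-fold, edgeR adjusted p = 0.0379, lost in 14 of the 34 fits that left out 1 library). In bulk tissue, more cells of a type and more RNA per cell cannot be told apart. With the mean of these markers as a covariate, the log2 differences were -0.04 for C1qa, 0.01 for C1qb, 0.12 for C1qc, 0.50 for C4b and 0.49 for C3ar1, with edgeR adjusted p between 0.239 and 0.948. Plaque-induced microglial genes, a list taken from known plaque responses, were called in 8 of 18 tested and all 8 were higher (0.204% of all genes were called higher), among them Cst7, a cystatin (42.8-fold, edgeR adjusted p = 1.79e-05), and Clec7a, a glucan receptor (5.88-fold, edgeR adjusted p = 9.67e-05).

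Reactive astrocyte markers, led by the filament gene Gfap, summed to between 221 and 763 CPM in carriers (median 371) and between 209 and 501 CPM in non-carriers (median 266). None of the 14 was called, and Lcn2, Timp1 and Steap4 were at 0 in 9, 9 and 3 libraries. Gfap was at 271 ± 110.1 CPM against 190.1 ± 55.9, 1.40-fold, with an edgeR adjusted p of 0.124. The part of astrocyte markers in the C4b and C3ar1 values was not tested by a covariate. Type I interferon response genes were above 0 in 26 of 27, against 50.7% of all genes. Of these 4 were called, all higher (0.204% of all genes were called higher): Oasl2, Lgals3bp, Ddx58 and Irf9. Markers of circulating myeloid cells summed to between 0.859 and 21.4 CPM in carriers (median 2.52) and between 0.653 and 9.13 CPM in non-carriers (median 2.09), with Ms4a3 at 0 in all 34 libraries, and of the 4 tested, none was called and all 4 were above 0. Their part in the complement values was not tested.

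Whether the duplication alters these genes was asked by averaging the 4 differences between Dp16 carriers and non-carriers. None of the 8 was called (edgeR), against 2.12% of all genes tested, and 1 of 8 had an unadjusted p under 0.05, against 13.6%. DESeq2 called none and limma-voom called 1, C4b, while over all genes they called 530 and 1760. C5ar1 had the widest difference and was called in none of its 44 alternative fits. The 19 mice without Dp16 ranged from 0.475 to 2.098 CPM (mean 1.03 ± 0.455, SD), and the 15 mice with it averaged 0.683 ± 0.202. The mean difference was 0.658-fold (95% interval 0.479 to 0.904, unadjusted p = 0.0113, edgeR adjusted p = 0.192), the ranges overlapped, and the counts behind it were 8 to 34 per library. C1qa, C1qb and C1qc differed by 0.954-fold, 0.987-fold and 1.00-fold, with intervals between 0.863 and 1.09. C4b was 1.20-fold (0.935 to 1.55) and Serping1 1.21-fold (0.907 to 1.61), neither called by edgeR as fitted, while C4b passed in 2 of 45 alternative fits (limma-voom and the fit with no low-count filter). Of the 13 homeostatic microglia markers, 3 were called lower with Dp16 (0.958% of all genes were), Selplg, Sall1 and P2ry12 (0.783-fold, 0.811-fold and 0.863-fold, edgeR adjusted p of 0.000672, 0.0147 and 0.0381).

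Among sham mice, Serping1 was at 5.10, 5.18 and 7.59 CPM in Dp16 and at 4.63, 3.31, 4.04, 1.80 and 2.43 CPM in wild-type. All 3 Dp16 mice were above all 5 wild-type mice, and Serping1 was the 1 member of 8 whose values did not overlap between these groups, against 4.59% of all genes tested. The difference was 1.83-fold (95% interval 1.02 to 3.27) and was not called (edgeR adjusted p = 0.667). No member was called by edgeR, DESeq2 or limma-voom, against 0.21% of all genes by edgeR, with 1 of 8 at an unadjusted p under 0.05 against 7.16%. Under tofacitinib Serping1 was at 5.16, 4.27, 3.69, 2.77 and 6.14 CPM in Dp16 and at 3.21, 2.59, 4.83, 6.48 and 1.96 in wild-type, which overlapped (1.14-fold, edgeR adjusted p = 0.899). Adding Dp16 to 5xFAD called no member among sham mice (edgeR, 0.102% of all genes called) or tofacitinib mice (0.238%), with 0 of 8 at an unadjusted p under 0.05 in each, against 3.74% and 7.89%, none by limma-voom, and none by DESeq2 of the 6 and 7 with an adjusted p. Between Dp16 and wild-type mice on tofacitinib none was called by any of these tools (edgeR called 0.255% of all genes), and 1 of 8 had an unadjusted p under 0.05, against 8.35%. The interaction of 5xFAD and Dp16 lay between -0.51 (Serping1) and 0.33 (C5ar1) on the log2 scale, with no edgeR adjusted p below 0.996. No member was called in it by edgeR (0.00567% of all genes), DESeq2 or limma-voom, and 0 of 8 had an unadjusted p under 0.05, against 4.25%.

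Tofacitinib was given to ask what blocking Janus kinases does in each genotype. Averaged over the 4 genotypes, all 8 genes lay within 0.13 of 0 on the log2 scale, and none was called (edgeR), as was none of the 17632 genes tested. None of the 8 had an unadjusted p under 0.05, against 3.32% of all genes, and DESeq2 and limma-voom called none of the 8. The intervals set how large a difference could have been missed. For C1qa, C1qb and C1qc, tofacitinib mice were at 0.989-fold (95% interval 0.897 to 1.09), 1.02-fold (0.923 to 1.13) and 1.01-fold (0.927 to 1.10) of sham mice. C4b was at 18.4 ± 7.06 CPM with tofacitinib (SD, n = 19) and 16.7 ± 6.36 in sham mice (SD, n = 15), 1.09-fold (0.857 to 1.39). C3ar1 was 1.03-fold (0.805 to 1.32) and C3 0.955-fold (0.572 to 1.59), so C3 allows changes of over 1.5-fold either way. Within wild-type, Dp16, 5xFAD and 5xFAD-Dp16 mice taken alone, edgeR called 0 members and 0 of 17632 genes, and DESeq2 and limma-voom called no member. Over all genes in 5xFAD mice, limma-voom called 3038, the fit with no low-count filter 642, and the fit without 5xFAD tofacitinib 1 called 411. None of the 8 had an unadjusted p under 0.05, against 7.24%, 2.02%, 14.7% and 1.83% of all genes. In 5xFAD carriers alone, C4b was at 21.2 ± 4.71 CPM in the 7 sham mice and 22.2 ± 7.20 in the 9 tofacitinib mice, and C3ar1 at 3.99 ± 1.41 and 3.72 ± 1.02. The interaction of 5xFAD and tofacitinib was -0.09 for C4b and -0.31 for C3ar1 on the log2 scale (edgeR adjusted p of 0.914 and 0.679), and no member was called (edgeR, 0 of 17632 genes called, 0 of 8 members and 14.3% of genes at an unadjusted p under 0.05, none of the 8 by DESeq2 or limma-voom).

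The sexes were compared because females of this transgenic line are known for heavier plaque load. C4b lay between 18.4 and 33.97 CPM in the 7 female carriers (median 25.4) and between 3.50 and 19.3 in the 9 female non-carriers (median 14.1). In males it lay between 10.8 and 28.9 in the 9 carriers (median 19.5) and between 11.2 and 25.3 in the 9 non-carriers (median 14.8). The highest female non-carrier was exceeded by 5 of 7 female carriers, and the highest male non-carrier by 1 of 9 male carriers. The ranges overlapped in both sexes. The interaction of 5xFAD and sex was 0.91 for C4b on the log2 scale (standard error 0.319, unadjusted p = 0.00797, edgeR adjusted p = 1). It was 0.61 without the libraries that stood apart, both of which were females. The estimate was above 0 for all 8 genes, against 48.7% of all genes, with a median of 0.37 against -0.01 over all genes tested, and 1 of the 8 had an unadjusted p under 0.05, against 3.13%. None of the 8 was called (edgeR, with 0 of 17632 genes called, and none of the 8 by DESeq2 or limma-voom). All 14 reactive astrocyte markers and all 13 homeostatic microglia markers were above 0 in the same interaction, none called, and their part in the C4b values was not tested. Markers of the choroid plexus, the secretory tissue of the ventricles, were all below 0 (10 of 10, median log2 -1.05).

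The rest of the pathway was read from a list of 60 complement genes, 52 besides the 8. Of the 52, 32 were tested, 20 were too low and 2 of these (Mbl1 and Colec10, of the lectin arm) had no count in any library. With 5xFAD, 2 of the 32 were called, both higher, against 0.204% of all genes called higher, and 19 of 32 were above 0, against 50.7%, with a median log2 difference of 0.06 against 0.0033 over all genes. Both encode chains of the receptors by which myeloid cells take up C3-tagged material. Itgax, the alpha chain of complement receptor 4, was at 1.40 ± 0.978 CPM in carriers (SD, n = 16) and 0.292 ± 0.250 in non-carriers (SD, n = 18), 4.91-fold (edgeR adjusted p = 0.0015). Itgb2, the beta chain that it shares with complement receptor 3, was at 9.31 ± 2.08 against 6.86 ± 1.11 CPM, 1.37-fold (edgeR adjusted p = 0.0381). The Itgb2 call was lost in 17 of the 34 fits that left out 1 library, and also by limma-voom (adjusted p = 0.0501) and with the microglia score as a covariate (edgeR adjusted p = 0.201). The Itgax call was lost with that covariate (edgeR adjusted p = 0.14), 1 of its 43 alternative fits, and in no fit that left out 1 library. Itgax was above the highest non-carrier in 9 of 16 carriers and Itgb2 in 10 of 16. Itgam, the alpha chain of receptor 3, was at 10.6 and 10.8 CPM and was not called (log2 -0.02, edgeR adjusted p = 0.907). Itgax is also on the plaque-induced microglial list, so its call is counted in both.

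The arms differed in what was present at all. In the classical arm, the C1r and C2 genes C1ra and C2 were tested but low per length, with median RPKM of 0.983 and 0.168, and differed by 0.14 and 0.38 on the log2 scale with 5xFAD (edgeR adjusted p of 0.650 and 0.608). In the lectin arm 3 of 9 genes were tested, led by Masp1 at a median RPKM of 2.51. In the terminal arm, which forms the membrane pore, 2 of 7 were tested, and C9, its pore-forming subunit, had 1 count in 1 library. The factor B gene Cfb of the alternative arm had at most 2 counts in a library. The C5 gene Hc had counts in 17 libraries, at most 14 in each. Regulators were the best represented, with 16 of 19 tested. Clu, or clusterin, which blocks pore assembly, had the highest level per length of the tested pathway genes (median RPKM 562). With 5xFAD, Cd59a, which blocks the pore on cell surfaces, differed by -0.38 on the log2 scale and was not called (edgeR adjusted p = 0.243).

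With Dp16, 1 of the 40 pathway genes tested was called, Clu, against 2.12% of all genes. It was at 913 ± 69.8 CPM in the 15 Dp16 carriers and 1086 ± 105 in the 19 non-carriers, 0.852-fold (log2 -0.23, standard error 0.0478, edgeR adjusted p = 0.00453), and the ranges overlapped. The call was lost in 1 of 45 alternative fits, with the microglia score as a covariate (edgeR adjusted p = 0.139). Astrocytes are its main source in the brain, and of the 10 general astrocyte markers 1, Fgfr3, was also called lower (0.826-fold, edgeR adjusted p = 0.00403) while 6 of 10 were above 0. Their part in the Clu value was not tested. With tofacitinib none of the 40 was called (edgeR).

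**Figure D3:**
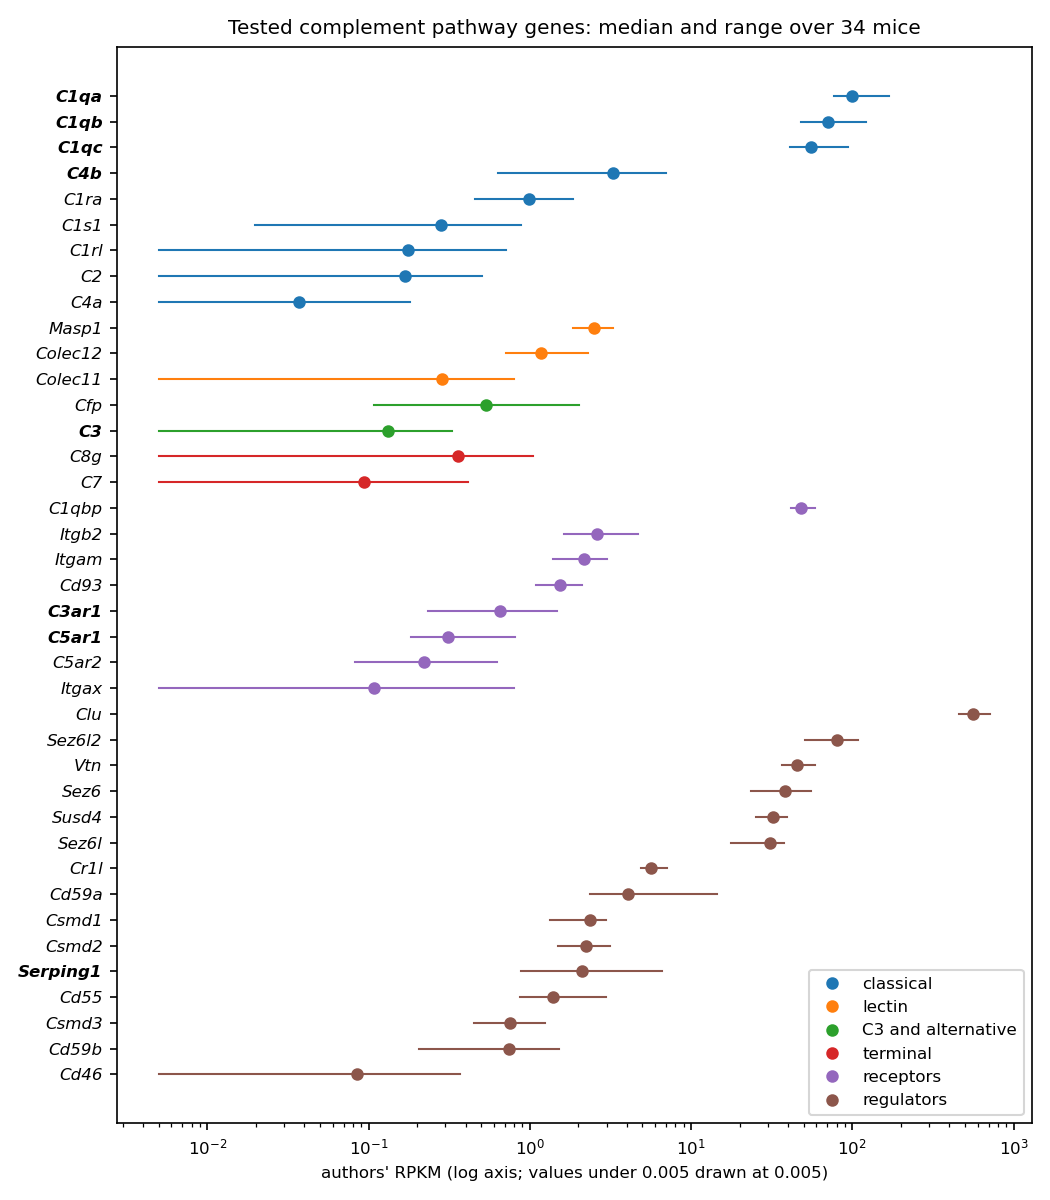
Level per gene length, as the authors' RPKM (x axis, log scale), of tested complement pathway genes (y axis, by arm or role in colour), with points for the median and lines for the range over 34 mice; the 8 genes described here are in bold. C1qa, C1qb and C1qc lie between 55.1 and 99.0, C4b at 3.29, C3 at 0.133 and the regulator Clu at 562.

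How the members vary together was described by correlation over the 34 libraries, which share group and depth, so no test is attached. The libraries that stood apart are among the 34, and these correlations were not repeated without them. The log2 levels of C1qa and C1qb, the neighbours whose chains join in C1q, correlated at r = 0.871, C1qb and C1qc at 0.839 and C1qa and C1qc at 0.743. After each group's mean was removed the values were 0.873, 0.814 and 0.774. C4b and C3ar1 correlated at 0.752, and at 0.6005 after removal of group means. C3 and C5ar1, the genes with the fewest counts, correlated with no other member above 0.310 and 0.160. Serping1 was nearest to C1qc, at 0.523.

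Over all genes tested, the 5 most like each member by the same measure were listed. For C1qa these included C1qb, Ctss, Ly86 and Trem2, and for C1qb they were C1qa, C1qc, Trem2 (r = 0.802), Ctss and Gfap. For C1qc they were Ctsd (0.875), C1qb, Trem2, Ctss and Gfap. C4b was most like March3 (0.818), Grn (0.784), Adcyap1r1, Dpysl5 and Tox2. C3ar1 was most like Trim25 (0.785), Eif2ak2 (0.770), Ddx58 (0.759), C4b and Zc3hav1. For Serping1 they were Fmod (0.790), Ptgds (0.774), Colec12, Ogn and Slc13a3, and C3 and C5ar1 were most like Rev3l (0.702) and Luc7l2 (0.574).

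Within carriers and non-carriers separately, 8 members were set against 3 marker scores (homeostatic microglia, reactive astrocytes, type I interferon response), 48 relations in all. Mice were permuted freely within each set, which mixes mice with and without Dp16, both treatments and both sexes. Differences between these groups can therefore enter r, rho and p. After Benjamini-Hochberg adjustment 2 passed, both among the 18 non-carriers. C4b followed the reactive astrocyte score with Pearson's r = 0.764 (permutation p = 0.00069, adjusted 0.0166) and Spearman's rho = 0.457 (permutation p = 0.0585, adjusted 0.328). Without the 2 mice farthest on the score, 1 of them wild-type sham 2, r was 0.425, so the relation rests on those mice. C3ar1 followed the same score with r = 0.725 (permutation p = 0.00054, adjusted 0.0166) and rho = 0.579 (permutation p = 0.0138, adjusted 0.166), and r was 0.629 without the 2 farthest. In the 16 carriers the values were r = 0.626 and rho = 0.632 for C4b (permutation p = 0.0111 and 0.0102, adjusted 0.107 and 0.164) and r = 0.139 and rho = 0.118 for C3ar1 (permutation p = 0.612 and 0.663, adjusted 0.741 and 0.795). Against the interferon score in carriers, C4b had r = 0.525 and rho = 0.662 (permutation p = 0.0371 and 0.0063, adjusted 0.224 and 0.151), and r was 0.786 without the 2 farthest. Among the C1q chains, C1qa followed the homeostatic microglia score in non-carriers most closely (r = 0.649, rho = 0.639, permutation p = 0.00371 and 0.00583, adjusted 0.0594 and 0.151).

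**Figure D4:**
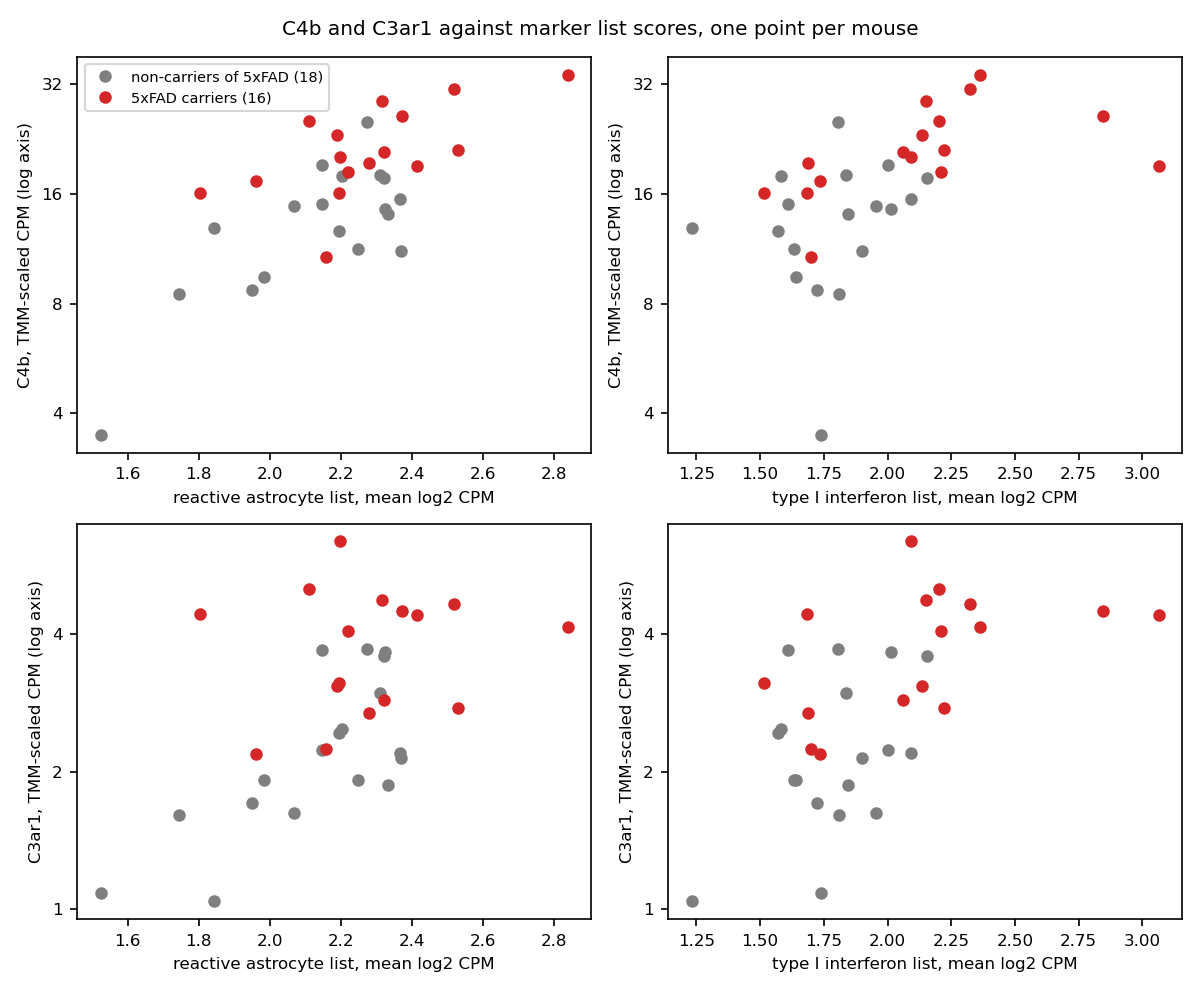
C4b and C3ar1 levels (y axis, TMM-scaled CPM, log scale) against the mean log2 CPM of the reactive astrocyte and type I interferon lists (x axes), with 1 point per mouse, red for the 16 5xFAD carriers and gray for the 18 non-carriers. The lowest C4b point, at 3.50 CPM, is wild-type sham 2, which also has the lowest astrocyte score.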

How the data were processed

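Poly-A libraries from the cortex of 34 mice (8 groups of 3 to 5) were made with a strand-specific kit and read as paired 150-base ends, per the labels. The authors deposited whole-number counts per gene, and RPKM values per gene and library. The submitters' processing notes name build GRCm38 and, without their roles, the tools HTSeq 0.6.1, SAMtools 1.5, HISAT2 2.1.0, FastQC 0.11.5 and bcl2fastq, and the strand setting of the counting is not given in the sources used here. The gene length implied by the deposited RPKM and the counts was the same in every library. It lay within a relative 8.88e-15 of the gene's median over 713471 nonzero values. The lengths themselves were not checked against an annotation. It was used only for levels per length.

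Genes were filtered by edgeR 4.0.16 (filterByExpr over 8 groups, 17632 of 55385 kept), scaled by TMM and fitted together in 1 robust quasi-likelihood model of group and sex, with Benjamini-Hochberg adjustment over all genes tested and calls under 0.05 (R 4.3.3). Intervals are 95%. DESeq2 1.42.0 and limma 3.58.1 (voom) were alternatives, with other filters, scalings and covariates and each library left out. The fit was also run on simulated counts with set changes, and the outcome is not reported here. The simulation held no library that stands apart, so it cannot show how such libraries affect the calls. Positions are from GENCODE M21, whose IDs and versions match all 8 genes. The correlations used log2 CPM with a prior count of 2.

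The 8 genes, the lists and the tests were chosen with earlier results of these data known. The named genes are the 8 members, up to 4 called genes per list, direction and comparison with the largest change, set pathway and tissue markers, and the 5 most correlated genes per member. Mbl1, Colec10, Masp1, C9, Cfb and the markers at 0 were named after their values were seen. The series text gives 6 tofacitinib 5xFAD and 4 sham 5xFAD-Dp16 mice, and 5 and 3 were analysed here. The labels give no batch or date, so a batch effect was not tested. Replicates are separate mice, per the labels. Some genes that the naming rule covers are not reported here.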

Additional observations from a re-analysis of the deposited data

Results flagged for a closer look

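In groups of 4 or 5 mice, 48 sets of values of the 8 genes were searched for a mouse far from the others, and 3 were found, about what chance gives, since it marks about 1 in 20 groups. C1qa was lowest in 5xFAD-Dp16 tofacitinib 4, at 85.3 CPM, with the next at 105 CPM. C5ar1 was highest in Dp16 tofacitinib 5, at 1.11 CPM, with the next at 0.660 CPM. Serping1 was highest in 5xFAD sham 4, at 7.41 CPM, with the next at 3.13 CPM.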

How the results depend on the processing

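The 8 genes held no call in any of the 20 comparisons as fitted (edgeR), and this count moved under some alternatives, the cause of which was not tested. In the average over 5xFAD carriers, 3 genes were called with the length trend removed, 3 by limma-voom, 3 with no low-count filter, 2 by DESeq2 (which gave C3ar1 no adjusted p), and 1 each with DESeq2 size factors in edgeR, with a minimum mean of 1 CPM and with no sex term. Leaving out 1 library gave 0 to 3 calls. It gave 3 without wild-type sham 3 or 5xFAD tofacitinib 6, and 2 without 5xFAD-Dp16 sham 1, 5xFAD tofacitinib 2, wild-type tofacitinib 3 or wild-type tofacitinib 4. It gave 1 without 5xFAD-Dp16 tofacitinib 3, 5xFAD sham 4, Dp16 sham 1, Dp16 tofacitinib 1 or 5, wild-type sham 5 or wild-type tofacitinib 5. C3ar1 passed in 19 alternatives, C1qc in 9, C4b in 6 and C1qb in 1. Over all 45 alternatives, 44 for C3ar1, the log2 difference stayed above 0 for each, from 0.49 to 0.83 for C3ar1, 0.50 to 0.72 for C4b, 0.12 to 0.32 for C1qc and 0.01 to 0.26 for C1qb. For 5xFAD against wild-type sham mice, 2 genes were called with no low-count filter, 1 by limma-voom, 1 with the length trend removed, and 0 to 1 with 1 library left out (1 without wild-type sham 3). For 5xFAD-Dp16 against wild-type sham mice, limma-voom and the fit with no low-count filter called 2 each. For the average over Dp16 carriers both called 1, and 1760 and 672 of all genes. With no low-count filter 1 gene was also called in Dp16 against wild-type sham mice, in 5xFAD and in 5xFAD-Dp16 against wild-type mice on tofacitinib, in 5xFAD-Dp16 against Dp16 mice on tofacitinib, and in the interaction of 5xFAD and sex. In that order, the same fit called 158, 76, 153, 111 and 15 of all genes. No member was called with only the groups compared, without both libraries that stood apart, with the microglia covariate, or without robust estimation of spread, the last chosen after seeing the data. Also chosen after seeing the data, leaving out 1 library moved the C1qc to C1qa log2 ratio difference between 0.11 and 0.149, with 32 of 34 past the threshold.

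Calls over all genes moved more. In the average over 5xFAD carriers there were 76, against 587 by DESeq2, 589 by limma-voom, 356 with the length trend removed, 1358 with no low-count filter, 10 with the microglia covariate and 14 to 322 with 1 library left out. For 5xFAD against wild-type sham mice there was 1, against 1587 by DESeq2, 2806 by limma-voom, 798 with the length trend removed, 1784 with no low-count filter, 1500 with only those groups and 2008 without wild-type sham 3. For 5xFAD-Dp16 against wild-type sham mice there were 64, against 163, 685 and 873 by DESeq2, limma-voom and no filter, and for the Dp16 average 374, against 1760 by limma-voom and 771 with the length trend removed. Tofacitinib against sham in 5xFAD mice had 0, against 3038 by limma-voom, 642 with no filter and 0 to 411 with 1 library left out. The interaction of 5xFAD and tofacitinib had 0, against 3771 by limma-voom and 675 with no filter. The Itgb2 and Csf1r calls were both lost without 5xFAD-Dp16 sham 2, 5xFAD-Dp16 tofacitinib 4, 5xFAD sham 1, 2 or 3, 5xFAD tofacitinib 1, Dp16 sham 2 or 3, Dp16 tofacitinib 2 or 4, or wild-type sham 2 or 4. Itgb2 alone was lost without 5xFAD-Dp16 tofacitinib 1, 5xFAD tofacitinib 4, Dp16 sham 1, wild-type sham 1 or wild-type tofacitinib 1, and Csf1r alone without 5xFAD-Dp16 sham 4 or 5xFAD-Dp16 tofacitinib 2.

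Mouse numbers repeat between groups, but the deviations of same-numbered mice from their group means correlated at a mean of -0.038 over 98 pairs, against 0.010 for other pairs, and exceeded 0.1 in every pair for 1 of 28 pairs of groups, so the numbers were not taken to pair the mice. With the number as a replicate block, 0 of 8 members and 17 genes were called in the 5xFAD average, where the log2 difference was 0.72 for C3ar1, 0.71 for C4b and 0.24 for C1qc (edgeR adjusted p of 0.131, 0.103 and 0.131). Depth limits C3 and C5ar1, whose counts stayed at or under 34 per library.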
